A study of Mus musculus with 5 samples.

Results

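Myod1, Myf5, Myog and Msc encode 4 basic helix-loop-helix (bHLH) transcription factors of the muscle lineage. Their transcripts were followed in RNA that came down with an anti-Staufen1 antibody from mouse skeletal muscle stem cells (RIP-seq). The genes were chosen by symbol in the deposited table of counts, and all 4 were present among its 11194 genes. 3 libraries came from wild-type mice (genotype Stau+/+, WT1 to WT3) and 2 from Staufen knockout mice (Stau-/-, KO1 and KO2). The series title places MyoD translation and stem cell quiescence at the centre of the study, and the knockout precipitates serve as the background of the antibody. The labels state neither age, sex nor knockout allele, and no treatment other than the precipitation, which all 5 libraries share. Nor do they tie each library to its own animal, so p-values reflect only how much these libraries vary, possibly for technical reasons.

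The 4 proteins bind DNA as dimers, usually with an E protein, at short sites called E-boxes. MyoD (from Myod1) and Myf5 commit cells to the muscle lineage. Myogenin (from Myog) drives committed cells into differentiation, while musculin (from Msc, also called MyoR) acts as a repressor of muscle genes. Muscle stem cells at rest are known to keep Myf5 transcripts without full translation, and a rise of MyoD protein accompanies their activation. Staufen1 recognises double-stranded stretches of RNA and takes part in RNA transport, translation and decay.

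All values below are gene counts from precipitated RNA without a matching input, so they combine how much of a transcript the cells held with how well it was recovered. Fewer cells of a type and less RNA per cell cannot be told apart. Totals ran from 3091302 counts in KO2 to 105473455 in WT1, and both knockout libraries were shallower than each wild-type library. The targeted gene Stau1 did not separate the groups, with 104 to 127 CPM in wild type and 109 to 111 CPM in knockout (log2 fold change 0.08, SE 0.19, adjusted p = 0.847 by edgeR), so groups are named by their labels. CPM here means counts scaled to a common library total, with TMM factors, and fold changes are wild type over knockout. Markers of other cell types moved with the groups, in both directions. The summed level of 15 endothelial markers was 1568 to 2144 CPM in wild type and 3391 to 3717 CPM in knockout. By the edgeR test 7 of the 15 were called higher in knockout, as were 1.00% of all genes, and none was at 0. The summed level of 15 measured muscle fibre markers was 566 CPM in KO1 and 683 to 753 CPM in wild type, but 2983 CPM in KO2. Of these 15, 1 was called, higher in knockout, against the same 1.00% of all genes, and none was at 0. The 11 markers of fibro-adipogenic progenitors, the matrix-producing cells of muscle, were mixed. Their sum ran the same way as the 4 genes, at 4476 to 6765 CPM in wild type and 3800 to 3849 CPM in knockout. It rested most on Gsn, with means of 2758 CPM in wild type and 2061 CPM in knockout, which was not called (log2 fold change 0.42, edgeR adjusted p = 0.248). Next came Col3a1, at 1103 and 511 CPM. The median log2 fold change of the 11 was 0.56. In 5 of the 11 all wild-type libraries lay above both knockout libraries, against 20.4% of all genes. The collagen genes Col1a1 (1.29, edgeR adjusted p = 0.0198) and Col3a1 (1.11, edgeR adjusted p = 0.012) were called higher in wild type. Ly6a (-0.87, edgeR adjusted p = 0.033) was called higher in knockout. The other 8 passed neither way, among them Pi16 at -0.92 (edgeR adjusted p = 0.228), and none of the 11 was at 0. The 12 muscle stem cell markers were all measured and summed to 6280 to 6699 CPM in wild type against 4196 to 4282 CPM in knockout.

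Myf5, the earliest of the determination factors in the embryo, lies on chromosome 10 at 107482908 to 107486134 (minus strand, mm10) in 3 exons, with Myf6 as the nearest coding gene. It had 46.9, 55.6 and 61.7 CPM in WT1 to WT3 and 44.0 and 25.1 CPM in KO1 and KO2. Every wild-type library was higher than both knockout libraries, but WT1 and KO1 lay close together. Their 95% exact counting intervals, 45.6 to 48.2 and 39.9 to 48.4 CPM, overlapped. Such intervals cover counting error only. They take each count as independent, although the RNA was amplified over 13 to 15 PCR cycles. On average Myf5 stood at 54.7 ± 7.42 CPM (SD, n = 3) in wild type and at 34.6 ± 13.3 CPM (SD, n = 2) in knockout. The difference, 0.64 on the log2 scale (SE 0.26, 95% interval 0.07 to 1.2), did not pass the edgeR quasi-likelihood test after adjustment over all genes (adjusted p = 0.196). The size of this value depended on both knockout libraries. The log2 fold change was 0.31 without KO2, which had 79 counts of Myf5, and 1.12 without KO1.

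Myod1 lies on chromosome 7 at 46376474 to 46379092 (plus strand, mm10) in 3 exons. Its level was 954, 800 and 672 CPM in WT1 to WT3 and 300.2 and 457 CPM in KO1 and KO2. The groups lay apart, with the lowest wild-type library 1.47 times the highest knockout library. The counting intervals, under the limits given for Myf5, ran from 434 to 481 CPM in KO2 and from 666 to 678 CPM in WT3. Myod1 was called higher in wild type, in 3 of 3 libraries (log2 fold change 1.10, SE 0.22; adjusted p = 0.0252 by edgeR). Of 14 other processing settings, 10 kept the call. They include the setting without a filter, which for every gene repeats the main fit because the filter removed 0 genes. It was lost without WT1, without WT3 and without KO1 (edgeR adjusted p 0.0555 to 0.111, log2 fold change down to 0.82) and with limma-voom (1.16, adjusted p = 0.0755).

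Myog, the differentiation factor, lies on chromosome 1 at 134290004 to 134292547 (plus strand, mm10) in 3 exons. Its level was 32.2, 45.7 and 30.0 CPM in WT1 to WT3, 6.39 CPM in KO1 and 27.4 CPM in KO2. KO1 stood far below the other libraries, while KO2 was just under the lowest wild-type library, WT3. The 95% exact counting intervals of WT3 (28.7 to 31.3 CPM) and KO2 (21.9 to 33.8 CPM) overlapped. The wild-type mean was 36.0 ± 8.51 CPM (SD, n = 3) and the knockout mean 16.9 ± 14.8 CPM (SD, n = 2). At 1.19 on the log2 scale (SE 0.46, 95% interval 0.21 to 2.17) this was the largest fold change of the 4, and it did not pass the edgeR test (adjusted p = 0.165). Without KO1 it was 0.39 (edgeR adjusted p = 0.542), and without KO2 it was 2.49 and was called (edgeR adjusted p = 0.0112), each with a lone knockout library assumed to vary like the others. Myog had 4.28 times as much signal in KO2 as in KO1 (95% exact counting interval 3.05 to 6.05), from 86 and 61 counts. Of all genes, 97.3% had a smaller log2 gap between the knockout libraries. KO2 is also the library in which muscle fibre markers were high, and the part of fibre RNA in the Myog value was not tested.

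Msc, the repressor, lies on chromosome 1 at 14753346 to 14755966 (minus strand, mm10) in 2 exons. It had 183, 132 and 199.7 CPM in WT1 to WT3 and 81.5 and 90.3 CPM in KO1 and KO2. The groups lay apart, and the knockout libraries were close to each other: KO2 was 1.11 times KO1, with a 95% exact counting interval of 0.965 to 1.27. Msc was called higher in wild type, in 3 of 3 libraries (log2 fold change 1.00, SE 0.22, 95% interval 0.54 to 1.47; adjusted p = 0.035 by edgeR). It kept the call in 9 of 14 other settings; the losses were limma-voom (1.02, adjusted p = 0.185) and each single left-out library other than WT2 (edgeR adjusted p 0.0865 to 0.144). None of the 4 genes overlaps another gene of the table or of the RefSeq table of the same assembly.

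**Figure D1:**
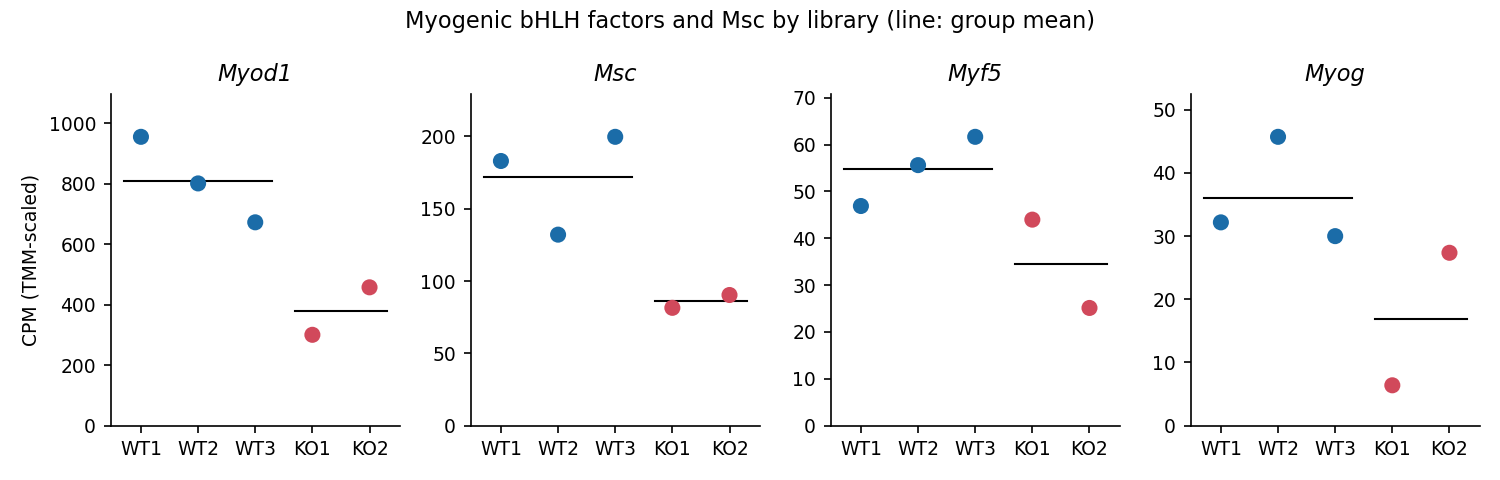
CPM (y axis, TMM-scaled, linear from 0) of each gene in the 5 libraries (x axis); blue points are wild type, red points are knockout and lines are group means. Each wild-type point lies above both knockout points of its gene, by a wide gap for Myod1 and Msc and by a narrow one for Myf5 (46.9 against 44.0 CPM) and Myog (30.0 against 27.4 CPM).

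In all, 2 of the 4 genes were called, both on the wild-type side, where 1.05% of all genes tested were called (118 genes); on the knockout side it was 1.00% (112 genes). Without TMM factors, on total counts alone, 93 and 143 genes were called in these directions, and a call was still made for Myod1 (1.05, edgeR adjusted p = 0.0293) and Msc (0.96, edgeR adjusted p = 0.0442). All 4 had an unadjusted p under 0.05 with the wild-type side higher, as did 10.4% of all genes. For all 4, each wild-type library also lay above both knockout libraries, as it did for 20.4% of all genes. The share of all genes with a larger log2 fold change was 2.01% for Myog, 2.73% for Myod1, 3.75% for Msc and 10.8% for Myf5. The median of all genes was 0.00, a value that the scaling of libraries to a common total brings about. Fold changes are therefore relative to the other genes of a library. They do not show whether more RNA in total was precipitated from wild type than from knockout. The 95% intervals of the 4 fold changes overlapped one another. In all 14 other settings each of the 4 stayed higher in wild type. Since their groups do not overlap, leaving out a library could not have turned the direction. The setting without a filter was the main fit again and could change neither a direction nor a call.

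**Figure D2:**
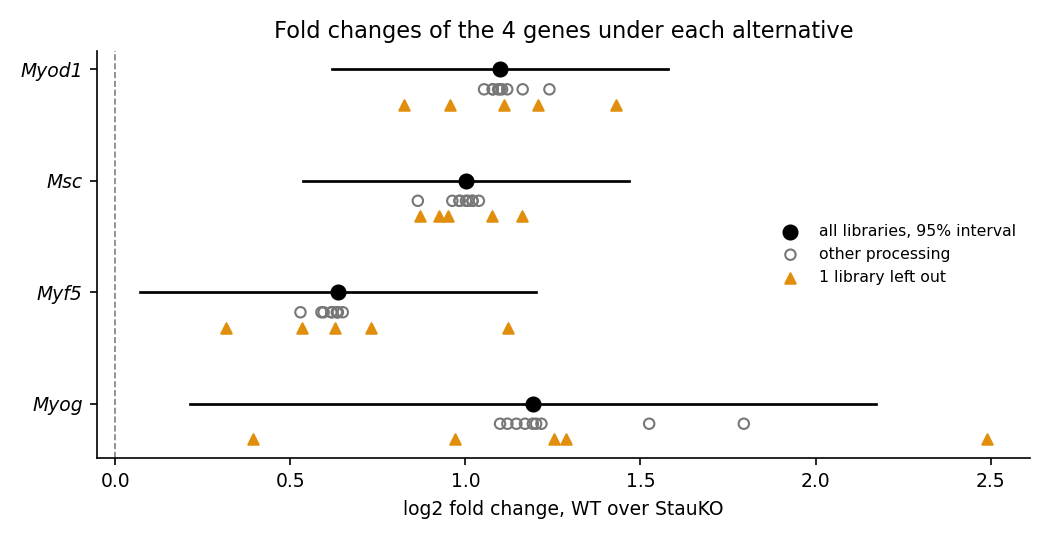
Log2 fold change, wild type over knockout (x axis), of the 4 genes; black points and bars are the value and 95% interval with all libraries, open circles are other processing settings and triangles are fits with 1 library left out. Values for Myod1 and Msc stay between 0.82 and 1.43, whereas those for Myog run from 0.39 to 2.49.

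Levels of different genes were set against each other per kilobase of exon, since the listed exons sum to 1854 bases for Myod1, 1717 for Msc, 2083 for Myf5 and 1479 for Myog. Myod1 was the most abundant of the 4 in each library, at 436 ± 76.3 (SD, n = 3) and 204 ± 59.8 (SD, n = 2) CPM per kilobase in wild type and knockout. It ranked between 107 and 159 among all 11194 genes on that scale in the wild-type libraries, and 388 and 264 in KO1 and KO2. Msc was second in each library, at 99.9 ± 20.5 (SD, n = 3) and 50.0 ± 3.65 (SD, n = 2) CPM per kilobase. Myf5, with 26.3 ± 3.57 (SD, n = 3) and 16.6 ± 6.40 (SD, n = 2), and Myog, with 24.3 ± 5.76 (SD, n = 3) and 11.4 ± 10.0 (SD, n = 2) CPM per kilobase, did not differ beyond their spread, and Myog was the higher in WT2 and KO2 only. Per kilobase, Myf5 was 0.653 to 1.46 times Myog in 4 of the libraries and 4.85 times Myog in KO1.

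The make-up of the 4 transcripts did not separate the groups. Of their summed CPM per kilobase, Myod1 took 77.3, 76.2 and 68.6% in WT1 to WT3 and 69.0 and 74.8% in KO1 and KO2, so the groups overlapped. Msc took 13.6 to 22% in wild type and 16.0 to 20.2% in knockout. Myf5 had its largest share in KO1, 8.99%, and Myog its smallest share in the same library, 1.84%. The sum itself was 666, 566 and 529 CPM per kilobase in WT1 to WT3 and 235 and 330 in KO1 and KO2, so it lay apart between the groups while its make-up did not.

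**Figure D3:**
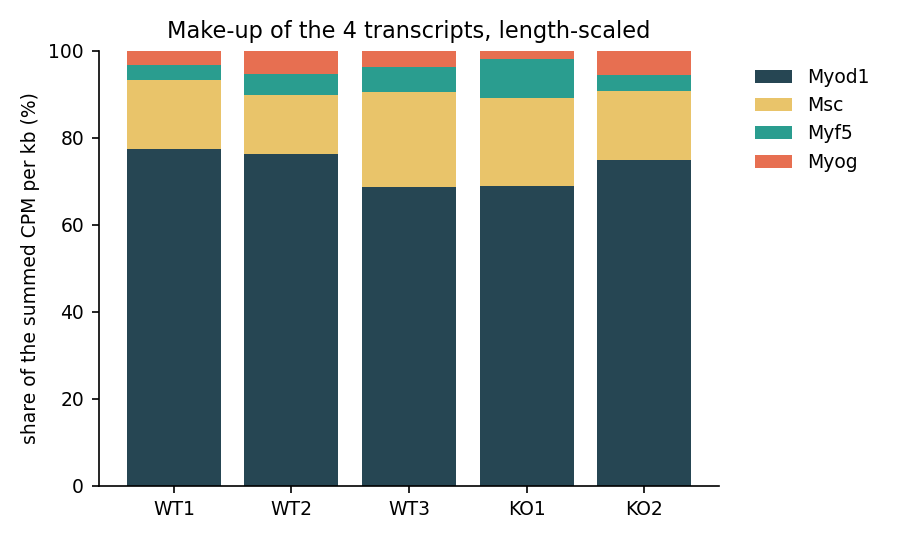
Stacked share (y axis, percent) of each gene in the summed CPM per kilobase of Myod1, Msc, Myf5 and Myog in the 5 libraries (x axis). Myod1 holds 68.6 to 77.3% in every library, with no gap between wild type and knockout.

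Ratios of 2 genes within a library do not depend on how libraries are scaled, and they set each of the 4 against another. For each of the 6 pairs the libraries overlapped between groups. The exact permutation test gave a two-sided p from 0.6 to 0.8 (adjusted p = 0.8 over the 6 pairs). With 3 against 2 libraries the smallest p this test allows is 0.2, so no pair could have passed at 0.05. Counts of Myod1 were 20.4, 14.4 and 10.9 times those of Myf5 in WT1 to WT3 and 6.82 and 18.1 times in KO1 and KO2, so the knockout libraries spanned a wider range than the wild-type ones. The mean log2 ratio of Myod1 over Myf5 was 3.88 ± 0.45 (SD, n = 3) and 3.47 ± 0.99 (SD, n = 2). Counts of Myod1 were 5.22, 6.06 and 3.36 times those of Msc in wild type and 3.68 and 5.05 times in knockout, the steadiest of the pairs in knockout. The widest pair was Myf5 over Myog, with log2 ratios of 0.54, 0.28 and 1.04 in wild type but 2.77 in KO1 and -0.12 in KO2. A larger difference between groups for Myod1 than for the other 3 was therefore not detectable with these libraries.

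The summed stem cell markers were themselves lower in the knockout libraries, so the 4 genes were also set against them; this scaling was chosen after the data were seen. Of 12 markers of muscle stem cells (among them Pax7, Vcam1 and the syndecan Sdc4), 2 were called by edgeR. Both were higher in wild type, where 1.05% of all genes were called. In 10 of the 12 all wild-type libraries lay above both knockout libraries, as for 20.4% of all genes. The median log2 fold change was 0.49. The sum rested most on Sdc4 (mean 2016 CPM in wild type, 1052 CPM in knockout, log2 fold change 0.94) and Des (1370 and 938 CPM, 0.55). Pax7 (0.14) and Itga7 (0.02) hardly differed, and the weight of single markers in the scaling was not tested. Per 1000 CPM of the 12 markers, Myod1 had 142, 127 and 103 CPM in WT1 to WT3 and 71.6 and 107 CPM in KO1 and KO2. KO2 then exceeded WT3, and the groups overlapped. Msc had 27.3, 21 and 30.6 CPM in wild type and 19.4 and 21.1 CPM in knockout on this scale, with WT2 within the knockout range. Myf5 (7.0 to 9.46 CPM in wild type, 5.87 and 10.5 CPM in knockout) and Myog (4.6 to 7.28 CPM, against 1.52 and 6.39 CPM) overlapped too.

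With libraries scaled to those markers in the edgeR fit, the log2 fold change was 0.48 for Myod1 (SE 0.22, adjusted p = 0.0928), 0.38 for Msc (SE 0.21, adjusted p = 0.159), 0.58 for Myog (SE 0.46, adjusted p = 0.319) and 0.02 for Myf5 (SE 0.27, adjusted p = 0.961). Neither Myod1 nor Msc was called. The scaling moves every gene down, and the median of all genes was -0.61 under it. The markers include Cdh15, Des and Itga7, which also stand in the list of MyoD family targets, and Heyl, a Notch target of the inhibitor list. The summed endothelial markers given above were higher in both knockout libraries and the summed fibro-adipogenic markers lower in both, and their part in the values of the 4 genes was not tested.

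**Figure D4:**
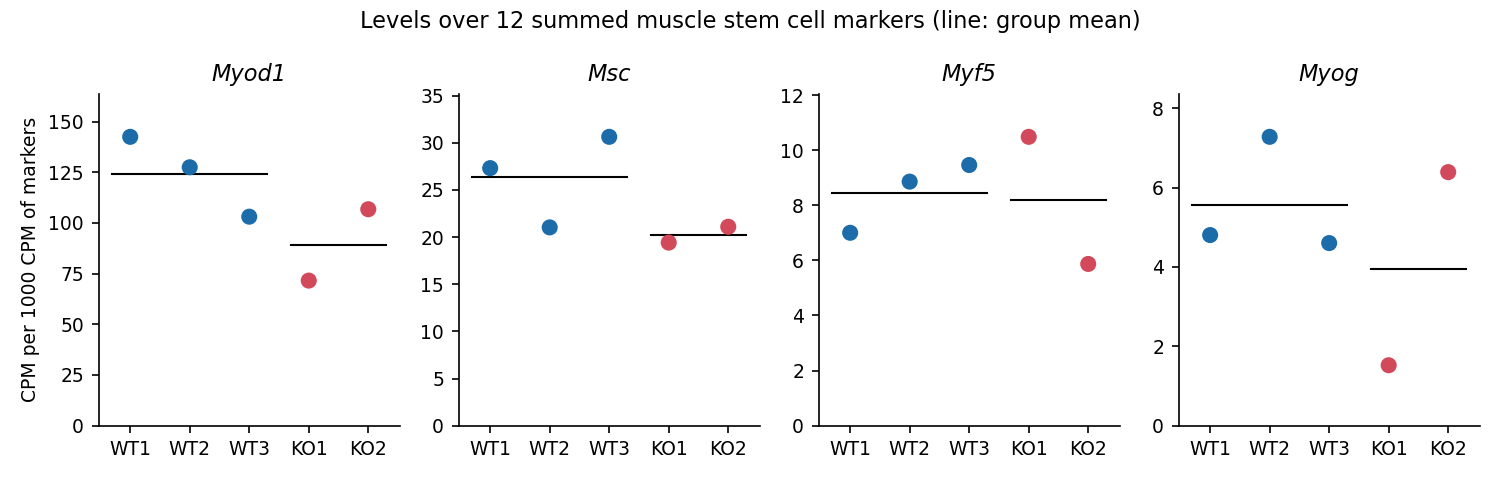
CPM of each gene per 1000 CPM of 12 summed muscle stem cell markers (y axis, linear from 0) in the 5 libraries (x axis); blue is wild type, red is knockout and lines are group means. For each gene at least 1 knockout point lies above the lowest wild-type point, as for Myod1 with 107 in KO2 against 103 in WT3. For Myf5, KO1 (10.5) lies above and KO2 (5.87) below all wild-type points.

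The partners and regulators of the 4 factors were read from 6 lists, of which 65 of 76 genes were in the table. By edgeR, 5 of the lists had 0 genes called; at an unadjusted p under 0.05 they had 0 of 3 E proteins, 3 of 12 inhibitors, 3 of 13 upstream factors, 1 of 9 cofactors and 5 of 15 RNA-binding regulators higher in wild type, where 10.4% of all genes stood. On the knockout side it was 1 upstream factor and 1 RNA-binding regulator, against 9.99% of all genes. limma-voom called none in any list, but among all genes it called only 8 on the wild-type side and 14 on the knockout side. DESeq2 called 0 of 3 E proteins, 1 of 12 inhibitors (Bhlhe40), 1 of 13 upstream factors and 1 of 9 cofactors (Carm1). It also called 3 of 15 RNA-binding regulators (Zfp36l1, Zfp36l2 and Elavl1). Each of these lay on the wild-type side, where DESeq2 called 433 of all genes, against 457 on the knockout side. The E proteins, which pair with the muscle factors on DNA, had 0 of 3 called, with log2 fold changes from 0.10 to 0.33; the smallest p belonged to Tcf12 (0.33, edgeR adjusted p = 0.481) and Tcf3 (0.22, edgeR adjusted p = 0.606). Of the inhibitors of bHLH activity, 0 of 12 measured genes were called and the median was 0.16. Bhlhe40, a bHLH repressor, had 140 ± 26.2 (SD, n = 3) and 83.4 ± 5.28 CPM (SD, n = 2) and a log2 fold change of 0.75 (edgeR adjusted p = 0.0721), and the Notch target Hey1 one of 0.56 (edgeR adjusted p = 0.22). Id3, whose protein takes E proteins away from MyoD, was the most abundant of that list, at 2596 ± 25.4 (SD, n = 3) and 2147 ± 133 CPM (SD, n = 2), with a log2 fold change of 0.27 (edgeR adjusted p = 0.388).

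Factors upstream of the family had 0 of 13 called and a median log2 fold change of 0.22. Pax7, the defining factor of these stem cells, had 0.14 on that scale (SE 0.20, edgeR adjusted p = 0.748), with the libraries overlapping. Among cofactors of MyoD 0 of 9 were called. The arginine methyltransferase Carm1 had 20.4 ± 4.01 (SD, n = 3) and 9.65 ± 1.2 CPM (SD, n = 2), a log2 fold change of 1.09 close to that of Myod1, which did not pass (edgeR adjusted p = 0.0929), and Mef2c one of -0.49 (edgeR adjusted p = 0.267).

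Among known targets of the MyoD family, 2 of 13 measured genes were called, both on the wild-type side, and 11 passed neither way. Of all genes, 1.05% were called on that side and 1.00% on the knockout side. The median log2 fold change of the list was 0.07. At an unadjusted edgeR p under 0.05, 5 of the 13 stood on the wild-type side, against 10.4% of all genes. The knockout side held 2 of the 13, against 9.99% of all genes. Both called genes belong to the neuromuscular junction. Chrna1, the alpha subunit of the muscle acetylcholine receptor, had 68.2, 53.7 and 63.4 CPM in WT1 to WT3 and 24.4 and 27.0 CPM in KO1 and KO2, a difference of 1.27 on the log2 scale (SE 0.23; adjusted p = 0.0165 by edgeR). Rapsn, which clusters that receptor, had 150, 128 and 147 CPM against 87.0 and 49.0 CPM, a difference of 1.04 on the log2 scale (SE 0.24; adjusted p = 0.0425 by edgeR). In both cases the groups lay apart. Neither was called without WT1, without WT3 or with limma-voom (adjusted p 0.0662 to 0.2); Chrna1 was not called without KO1 (edgeR adjusted p = 0.0698), nor Rapsn without KO2 (0.70, edgeR adjusted p = 0.179). With libraries scaled to the stem cell markers, Chrna1 was at 0.65 and still called (edgeR adjusted p = 0.04), and Rapsn was at 0.42 and not called (edgeR adjusted p = 0.175). Other receptor and fibre genes of the list went other ways: the beta subunit gene Chrnb1 had a log2 fold change of -0.07, and the fibre genes Acta1 and Ckm had -1.40 and -1.21, none of them called (edgeR adjusted p 0.117 to 0.892). The fibre genes were high in KO2 alone. Myf6, the family's remaining member, and 6 further targets were not in the table, which leaves out genes of low level.

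RNA-binding proteins that act on muscle transcripts had 0 of 15 called and a median of 0.26. The decay factor Zfp36l2, of the tristetraprolin family, had 139 ± 19.0 (SD, n = 3) and 77.9 ± 12.9 CPM (SD, n = 2) and a log2 fold change of 0.82 (edgeR adjusted p = 0.0553). Elavl1, which encodes the stabilising protein HuR, had 94.1 ± 16.2 (SD, n = 3) and 57.0 ± 1.36 CPM (SD, n = 2) and a log2 fold change of 0.72 (edgeR adjusted p = 0.0854). Stau2, the paralog of the precipitated protein, had the lowest value of the list, a log2 fold change of -1.0 (edgeR adjusted p = 0.165), from 8.33 and 16.9 CPM on average.

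**Figure D5:**
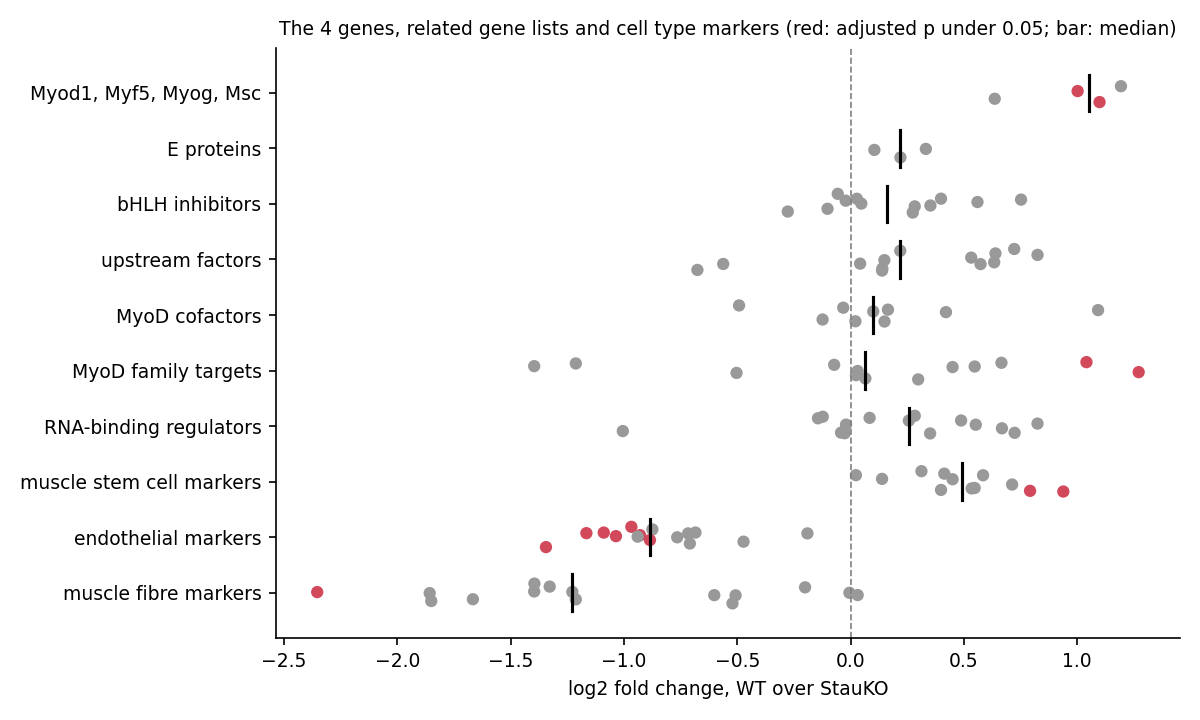
Log2 fold change, wild type over knockout (x axis), of each gene in the lists named on the y axis; red points have an adjusted p under 0.05 in the edgeR test, grey points do not, and black bars are list medians. The top row holds Myod1, Myf5, Myog and Msc, stem cell markers centre on 0.49, and endothelial and muscle fibre markers centre on -0.89 and -1.23.

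The genes whose pattern over the 5 libraries lay nearest to each of the 4 were found by the root mean square difference of centred log2 CPM, among 8243 named genes with a mean of at least 10 CPM. Nearest to Myod1 were Csdc2, which encodes a cold-shock domain RNA-binding protein (difference 0.06), and then Spsb1, Praf2, the matrix gene Sparc, the basement membrane collagen gene Col4a2 and the splicing factor gene Srsf4 (0.12 to 0.15). Csdc2 had 139.6, 111.3 and 98.7 CPM in WT1 to WT3 and 40.4 and 70.0 CPM in KO1 and KO2, the same order of libraries as Myod1. The nearest to Myf5 were Phykpl, Glb1 and Ambra1 (0.06 to 0.08), and to Msc Ube2d-ps, Mettl2 and the urokinase receptor gene Plaur (0.07 in each case). Myog had no such close neighbour, with Rad23b, Zfp422 and Pusl1 at 0.23 to 0.34. The 4 genes were not each other's nearest: Msc came at position 300 from Myod1 (difference 0.32), and Myf5 and Myog were the farthest apart of the 6 pairs, at 1.0.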

How the data were processed

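Raw counts per gene were deposited by the authors, as whole numbers, with exon positions and a gene length. The tools named in the submitters' processing notes are STAR, Trim Galore, edgeR and featureCounts (Subread), with mm10; no source used here gives versions, annotation or strand. Per the labels' protocols, 100 pg of precipitated RNA was primed with oligo(dT), amplified and read as paired 101-base reads; no input library was used here. The lowest third-highest CPM of any gene was 3.02, so the deposited counts had been filtered on level. Such a limit can be met by the 3 wild-type libraries alone, but not by the 2 knockout libraries alone. The shares of all genes given above come from the genes left by it. The gene length column of the file, a value other than a measurement, was deposited by the authors and used for levels per kilobase.

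Counts were analysed in R 4.3.3 with edgeR 4.0.16 (filterByExpr, which removed 0 genes, TMM, glmQLFit, two-sided quasi-likelihood F-test, Benjamini-Hochberg over all 11194 genes, threshold 0.05), after a test on simulated data. DESeq2 1.42.0 and limma 3.58.1 (voom) were alternatives, beside RLE, upper-quartile and no factors, filters, thinning to the shallowest library, a replicate block and each library left out. Pair ratios used counts plus 0.5. The genes, lists and tests were chosen with earlier results of these data known. Genes named are the 4, Stau1, called members and the 2 of smallest p of each of the 6 lists of partners and regulators, and the nearest patterns (6 for Myod1, 3 for each other), of which the 2 of the upstream list are not reported here; Id3, Pax7, Stau2, Zfp36l1, Chrnb1, Acta1 and Ckm were named after their values were seen. Cell type markers are named only as examples of their list (Vcam1, Sdc4, Cdh15, Des, Itga7, Heyl, Col1a1, Col3a1, Gsn, Ly6a and Pi16). Marker lists of macrophages (0 of 8 called) and red blood cells (3 of 4 measured called higher in knockout, against 1.00% of all genes) were also read.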

Additional observations from a re-analysis of the deposited data

How the results depend on the processing

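No setting turned the direction of Myod1, Myf5, Myog or Msc; the causes of the changes below were not tested. With 1 library left out, the log2 fold change ran from 0.82 to 1.43 for Myod1, 0.31 to 1.12 for Myf5, 0.39 to 2.49 for Myog and 0.87 to 1.16 for Msc. With limma-voom, Myod1 (1.16) and Msc (1.02) lost their calls, and scaled to stem cell markers they were at 0.48 and 0.38 without a call. The labels do not say whether replicate numbers pair the libraries. Deviations of same-numbered libraries correlated at 0.0496 and 0.0401, with only 2 pairs. Deviations of 2 knockout libraries from their mean mirror each other, so these values cannot decide the pairing. With the replicate number as a block, Myog was called (1.52, edgeR adjusted p = 0.00152), Myod1 stayed called (1.24, edgeR adjusted p = 1.9e-05), as did Msc, and Myf5 did not; the block gave 288 genes higher in wild type and 324 in knockout. Over all genes, counts higher in wild type and in knockout were 433 and 457 with DESeq2, 8 and 14 with limma-voom, 200 and 224 after thinning (5 further random draws gave 122 to 199 and 142 to 209, with Myod1 and Msc called in each), 50 and 4122 when scaled to markers, and 11 to 176 and 23 to 172 with 1 library left out. MyoD family targets called were 0 with limma-voom and 0 to 3 with 1 library left out. With 1 library left out, pair differences (wild type minus knockout, log2 ratio) ran from -0.30 to 1.11 for Myod1 over Myf5, -0.093 to 0.38 for Myod1 over Msc, -1.04 to 0.45 for Myod1 over Myog, -0.75 to 0.20 for Myf5 over Msc, -2.15 to 0.74 for Myf5 over Myog and -0.54 to 1.40 for Myog over Msc; each turned its sign without KO1, and Myod1 over Msc also without WT2 (-0.04).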
